A study of Mus musculus with 6 samples.

Results

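The GDNF family of ligands and receptors comprises 9 mouse genes: the ligands Gdnf, Nrtn, Artn and Pspn, the coreceptors Gfra1, Gfra2, Gfra3 and Gfra4, and the receptor tyrosine kinase Ret. Its members were taken as every probe set whose annotation names 1 of these genes and no other, which gave 9 of 18193 genes and 16 of the 45037 probe sets tested. Gfra2 had 5 of them, Gfra1 had 3, Ret had 2 and the other genes had 1 each. RNA came from prepubertal mouse testis cells separated with magnetic beads by their surface Thy1, a small glycoprotein, into a Thy1-positive fraction enriched for spermatogonial stem cells by transplantation assay and a Thy1-negative fraction depleted of them. Each fraction was sampled in 3 independent donor preparations, with 1 Affymetrix array per sample. Thy1-negative arrays carry the names N1 to N3 and Thy1-positive arrays P1 to P3, numbered by the labels. The labels give no strain, genotype, exact age or treatment for either fraction.

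Ligands of the GDNF family are secreted dimers that bind GFRA coreceptors, which are tethered to the membrane by a lipid anchor, and the complex activates the tyrosine kinase RET. GDNF pairs preferentially with GFRA1, neurturin (NRTN) with GFRA2, artemin (ARTN) with GFRA3 and persephin (PSPN) with GFRA4. In the testis, GDNF from Sertoli and peritubular cells sustains the self-renewal of undifferentiated spermatogonia, which carry GFRA1 and RET.

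Every level is given as log2(intensity + 1). A difference is the Thy1-positive mean minus the Thy1-negative mean, with n = 3 arrays per fraction throughout. SD is between arrays, and SE, intervals and p-values are from limma with Benjamini-Hochberg adjustment over all 45037 probe sets at a threshold of 0.05. A probe set was called dim in a fraction where its mean lay below the mean of that fraction's array medians, which were between 4.06 and 4.21 in the 6 arrays. Probe sets bind with different strength, so a level is compared between arrays for a given probe set and never between genes. In these bulk fractions, fewer cells of a type and less RNA per cell cannot be told apart.

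The sort and the cell types bear on every result below. Thy1 measured 2.35, 2.35 and 2.74 in the Thy1-negative and 6.05, 6.52 and 6.05 in the Thy1-positive arrays (difference 3.72, SE 0.19, limma adjusted p = 0.00151). It was dim in Thy1-negative cells, so its fold is at least 3.99 with values raised to the highest array median. Over all 18193 genes, each by its probe set with the highest mean, 16.4% were higher and 13.2% lower. Markers of undifferentiated spermatogonia were higher in Thy1-positive cells for 11 of 12 genes measured, with list means of 6.72 to 7.28 against 9.35 to 9.45. Macrophage markers were higher for 12 of 12, with list means of 3.42 to 3.51 against 9.87 to 10.32, and 9 of the 12 were dim in Thy1-negative cells. Sertoli cell markers were lower for 12 of 14, at 10.70 to 10.85 against 6.86 to 8.51, and peritubular myoid markers for 6 of 8, at 8.61 to 9.19 against 6.73 to 7.11. Of 10 general germ cell markers 3 were higher and 7 did not pass, with list means of 9.14 to 10.81 against 11.62 to 11.66. The germ cell list was highest within the Thy1-negative fraction in N2 (10.81, against 9.14 in N1 and 9.67 in N3). The Sertoli list was highest within the Thy1-positive fraction in P2 (8.51, against 6.86 in P1 and 7.03 in P3). The part of these cell types in the results was not tested.

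The stretches upstream of Gdnf and Gfra1 are shown because these genes, a ligand and its coreceptor, changed in opposite directions. They come from the RefSeq promoter table on build GRCm38.p6, which matched 6 of the 9 genes with 8 windows; Gfra2, Gfra3 and Ret were not matched. Each line gives the 250 bases before the annotated start, in lower case, with capitals for matches to TATAAA or CANNTG (the E-box) on either strand. The Gdnf stretch lies at chr15:7809798-7810047 on the plus strand, and the Gfra1 stretch at chr19:58455399-58455648 on the minus strand.
Gdnf: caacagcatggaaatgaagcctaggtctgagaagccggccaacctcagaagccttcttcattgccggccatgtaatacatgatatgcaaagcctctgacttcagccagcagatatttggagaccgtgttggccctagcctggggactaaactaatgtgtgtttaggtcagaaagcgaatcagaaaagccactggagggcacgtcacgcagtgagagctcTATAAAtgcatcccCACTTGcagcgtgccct
Gfra1: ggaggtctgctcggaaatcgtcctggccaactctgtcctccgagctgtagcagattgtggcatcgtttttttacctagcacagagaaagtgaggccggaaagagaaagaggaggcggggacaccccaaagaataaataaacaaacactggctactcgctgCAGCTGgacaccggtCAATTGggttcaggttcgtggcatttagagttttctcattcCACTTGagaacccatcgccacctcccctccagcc
In the first annotated Gdnf window TATAAA begins 31 bases before the start. None of the other 7 windows of the family, each 300 bases long with 50 bases after the start, holds TATAAA on either strand, and 13.6% of all 32851 windows do. An E-box match is present in all 8, against 72.3% of all windows. GGGCGG, the GC box, was found in the windows of Nrtn and Artn only (35.7% of all windows), TGACG, the core letters of a cyclic AMP response element, in the first windows of Gdnf and Gfra4 (20.8%), and CACNAG, the N-box, in the second Gdnf window and in both Gfra4 windows (42.5%). These matches describe letters in the windows and no binding was measured.

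GDNF receptor genes were higher and Gdnf itself was lower in Thy1-positive cells. All 3 probe sets of Gfra1, both of Ret and that of Gfra4 rose, the probe set of Gdnf fell, and the other 9 did not pass, where 23.4% of all probe sets passed in either direction. Thus 6 of 16 probe sets (37.5%) were higher, against 11.8% of all probe sets, and 1 (6.25%) was lower, against 11.5%. By the probe set of each gene with the highest mean, 3 of the 9 genes were higher and 1 was lower, against 16.4% and 13.2% of all genes. Changes of at least 10-fold were found upward in 5 probe sets, all of Gfra1 or Ret, and downward in 1, against 0.424% and 0.806% of all probe sets. The counts of 6 and 1 were also 6 and 1 without both arrays numbered 2, but 0 and 0 without both arrays numbered 3, where the Gfra1 differences were 3.44, 4.61 and 5.50 with adjusted p = 0.0507, 0.0501 and 0.0697. For 9 of the 16 every array of one fraction lay above every array of the other, against 43.6% of all probe sets, and 7 were dim in both fractions.

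**Figure D1:**
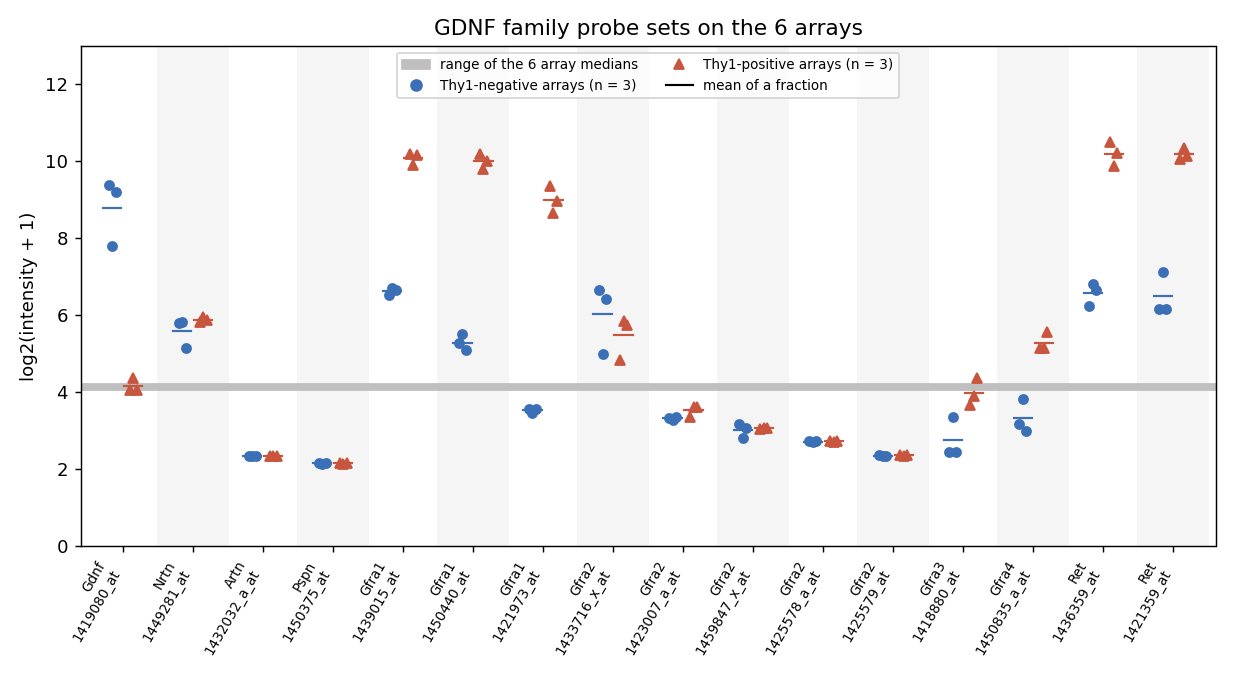
Level of each of the 16 GDNF family probe sets on the 6 arrays, as log2(intensity + 1); circles are Thy1-negative and triangles Thy1-positive arrays, short lines are means of 3 and the grey band is the range of the array medians (4.06 to 4.21). Gfra1 and Ret sit between 8.67 and 10.51 in Thy1-positive arrays, above every Thy1-negative value of the same probe set, and Gdnf shows the opposite order.

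Gdnf encodes the founding ligand of the family. It measured 9.38, 7.81 and 9.20 in N1, N2 and N3 and 4.06, 4.38 and 4.05 in P1, P2 and P3. The lowest Thy1-negative array stood 3.43 above the highest Thy1-positive array, and the Thy1-positive arrays lay at the level of the array medians. Gdnf was 24.8-fold lower in Thy1-positive cells (difference -4.63, SE 0.47, 95% interval -5.88 to -3.38, adjusted p = 0.00695). N2, the array with the lowest Gdnf in its fraction, had the highest germ cell (10.81), undifferentiated spermatogonia (7.28) and peritubular myoid (9.19) list means there. It also had the lowest Leydig cell (9.54), mesenchyme (10.50) and endothelial (4.01) list means of the Thy1-negative arrays. Its Sertoli list mean was 10.70, against 10.85 in N1 and 10.83 in N3, over members that differed in order. Amh measured 8.48, 6.46 and 7.70 in N1, N2 and N3, and Cldn11 11.24, 11.88 and 11.55. As for Amh, N2 was the lowest of these arrays for Sox9, Fshr, Wt1, Gata4, Clu, Inha, Dhh, Aard and Cst12. As for Cldn11, it was the highest for Gata1, Rhox5 and Tsc22d3, of which Rhox5 and Tsc22d3 were not called lower. Amh and Cldn11, a hormone and a tight junction protein of Sertoli cells, were picked after their values had been seen. The part of these cell types in the Gdnf values was not tested. Without N2 the difference was -5.13.

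The ligand Nrtn was measured above the array medians in both fractions and did not pass. Its levels were 5.81, 5.82 and 5.15 in N1, N2 and N3 and 5.82, 5.95 and 5.88 in P1, P2 and P3. The fractions were parted by 0.002, so N1 and N2 were at the level of the Thy1-positive arrays and N3 alone was lower. The difference was 0.29 (SE 0.21, 95% interval -0.26 to 0.84, adjusted p = 0.432).

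The probe sets of Artn and Pspn gave no signal that varied with the sort. Artn measured 2.34 or 2.35 on all 6 arrays and Pspn 2.14 or 2.15, and the interval of both differences was -0.02 to 0.02. Both probe sets were dim in both fractions, so these intervals describe the background of the probe sets and do not bound the change of the transcripts.

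Gfra1 encodes the coreceptor that GDNF prefers. Its probe set with the highest mean, 1439015_at, measured 6.53, 6.70 and 6.65 in N1, N2 and N3 and 10.20, 9.91 and 10.17 in P1, P2 and P3. Probe set 1450440_at measured 5.27, 5.51 and 5.09 against 10.18, 9.81 and 10.00. Probe set 1421973_at measured 3.57, 3.47 and 3.57 against 9.37, 8.67 and 8.98. On each of these probe sets P2 was the lowest Thy1-positive array, and the gap between the fractions was 3.22, 4.30 and 5.10.

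All 3 Gfra1 probe sets rose. The fold was 11.1 for 1439015_at (difference 3.47, SE 0.10, adjusted p = 0.000315) and 26.1 for 1450440_at (4.71, SE 0.15, adjusted p = 0.000492). It was 44.3 for 1421973_at (5.47, SE 0.19, adjusted p = 0.000610), which was dim in Thy1-negative cells at 3.54. With values below the highest array median of 4.21 raised to it, the last fold was at least 27.8, and this bound holds for that floor. The 95% intervals of the 3 differences, 3.21 to 3.72, 4.31 to 5.11 and 4.97 to 5.97, part the first probe set from the other two, while the last pair overlaps. These probe sets report on the same RNA samples and are not replicates of each other.

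Ret encodes the kinase shared by all the coreceptors. Probe set 1436359_at measured 6.23, 6.82 and 6.67 in N1, N2 and N3 and 10.51, 9.87 and 10.22 in P1, P2 and P3. Probe set 1421359_at measured 6.17, 7.13 and 6.17 against 10.05, 10.35 and 10.14. N2 was the highest Thy1-negative array on both, whereas P2 was lowest in its fraction on one and highest on the other. Ret rose 12.3-fold by the first (3.62, SE 0.24, 95% interval 3.00 to 4.25, adjusted p = 0.00276) and 12.9-fold by the second (3.69, SE 0.31, 95% interval 2.88 to 4.50, adjusted p = 0.00463). The gaps between the fractions, 3.05 and 2.93, were larger than the spread within either.

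**Figure D2:**
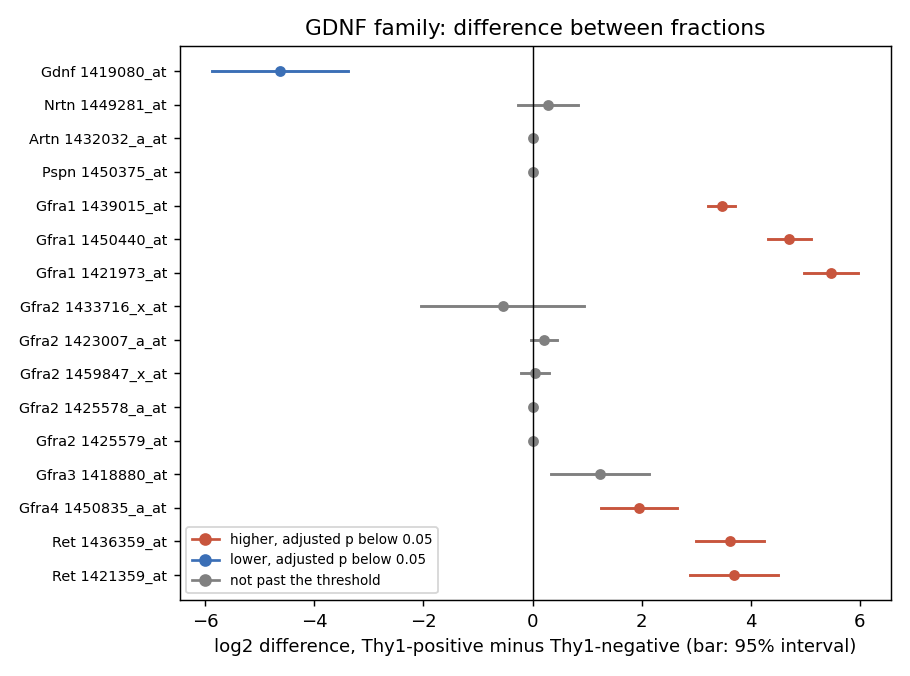
Difference of the mean log2(intensity + 1), Thy1-positive minus Thy1-negative, for each of the 16 probe sets, with its 95% interval from limma (3 arrays per fraction). The intervals of Gfra1, Ret and Gfra4 lie above 0 and that of Gdnf, -5.88 to -3.38, below it; the interval of Gfra3 excludes 0, although its adjusted p of 0.0673 did not pass.

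Gfra4, the coreceptor of persephin, rose from low levels. It measured 3.18, 3.82 and 2.99 in N1, N2 and N3 and 5.14, 5.14 and 5.56 in P1, P2 and P3. No Thy1-negative array reached the Thy1-positive ones, and N2 was the highest of its fraction. The difference was 1.95 (SE 0.27, 95% interval 1.25 to 2.65, adjusted p = 0.0122), a fold of 3.87. Since Gfra4 was dim in Thy1-negative cells, its fold is at least 2.11 with values raised to the floor of 4.21. Without P3 the difference was 1.81 and did not pass (adjusted p = 0.0567).

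Gfra3, the coreceptor of artemin, was dim in both fractions and did not pass. It measured 2.44, 3.36 and 2.45 in N1, N2 and N3 and 3.67, 3.90 and 4.36 in P1, P2 and P3. The fractions did not overlap, with N2 again nearest to the Thy1-positive arrays. The difference was 1.23 (SE 0.34, 95% interval 0.33 to 2.13, adjusted p = 0.0673), and it passed without N2 (1.54, adjusted p = 0.0208). It also passed with median centring (1.35, adjusted p = 0.0171), housekeeping centring (1.14, 0.0438), values raised to the 25th percentile (1.07, 0.0391) and array weights (1.78, 0.00106). With values below the array medians raised to them the difference was -0.02.

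Gfra2 encodes the coreceptor of neurturin, and none of its 5 probe sets passed. Probe set 1433716_x_at, of a kind that Affymetrix marks as open to cross-hybridisation, measured 6.67, 5.00 and 6.42 in N1, N2 and N3 and 4.85, 5.86 and 5.74 in P1, P2 and P3. The fractions overlapped, and N2 and P1 were the low arrays. Its difference was -0.55 (SE 0.57, 95% interval -2.04 to 0.95, adjusted p = 0.583). The other 4 probe sets were dim in both fractions, with means of 2.35 to 3.53, and differed by 0.005, 0.006, 0.04 and 0.21. The last of these, 1423007_a_at, measured 3.32, 3.27 and 3.37 against 3.35, 3.61 and 3.63, so that P1 fell within the Thy1-negative range (adjusted p = 0.176). It passed without P1 (0.31, adjusted p = 0.0272), with median centring (0.34, 0.0274) and with array weights (0.23, 0.0342). Probe set 1433716_x_at passed with array weights (-0.81, adjusted p = 0.0442). With median centring 1425578_a_at and 1425579_at passed at 0.13 each (adjusted p = 0.00675), the size of the shift of all probe sets in that setting.

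**Figure D3:**
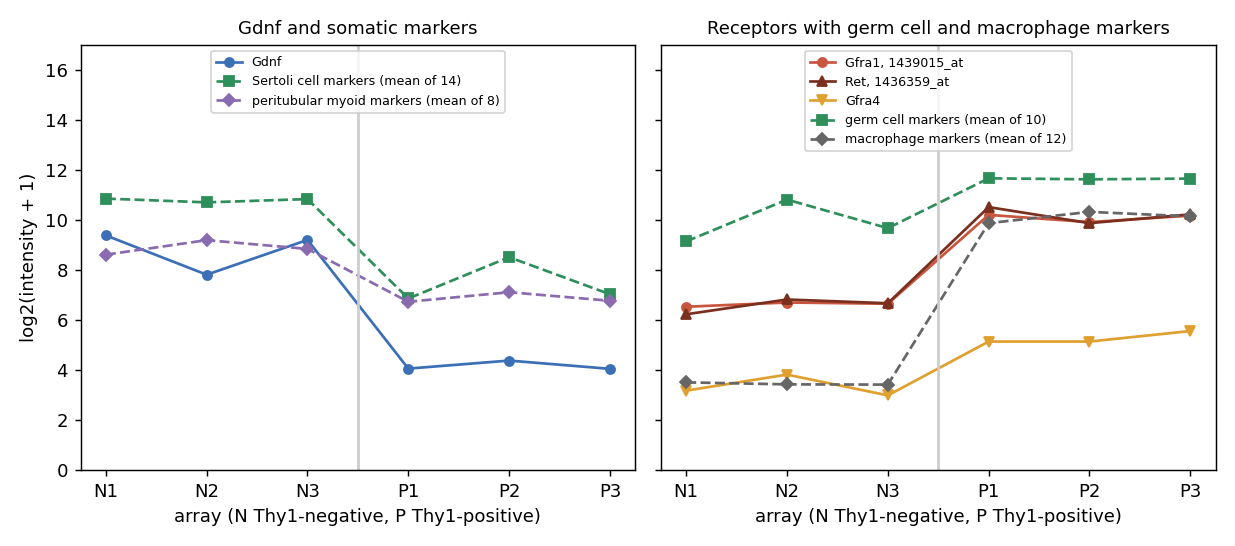
Levels on each array, as log2(intensity + 1), of Gdnf beside the mean of 14 Sertoli and 8 peritubular myoid marker genes (left), and of Gfra1, Ret and Gfra4 beside the mean of 10 germ cell and 12 macrophage marker genes (right). Gdnf and the Sertoli mean are lower in all 3 Thy1-positive arrays, and N2 has the lowest Gdnf, the highest Ret and the highest germ cell mean (10.81) of the Thy1-negative arrays; heights of different lines are not comparable.

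None of 4 other surface protein genes of signalling by this family passed by limma on all arrays, and 2 of them, Ncam1 and Sorl1, had an unadjusted p below 0.05. Ncam1, an adhesion molecule that binds GDNF with GFRA1 in the absence of RET, differed by -0.66 (SE 0.22, adjusted p = 0.105). Sorl1, a sorting receptor that takes up GDNF and GFRA1, measured 5.40, 7.24 and 6.06 against 7.77, 7.55 and 7.51, a difference of 1.37 (SE 0.51, adjusted p = 0.134). Sorl1 passed without N2 (1.88, adjusted p = 0.0142), and both Sorl1 and Ncam1 passed under several other settings. The proteoglycan gene Sdc3 (-0.11, SE 0.24, adjusted p = 0.847) and the GFRA-related gene Gas1 (-0.09, SE 0.39, adjusted p = 0.919) lay within their spread, and both signs turned when arrays were centred on their median. Of the 6 genes of this list, 4 had a probe set of their own.

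Of 45 listed genes that carry or limit the RET signal inside the cell, 36 were measured, each by its probe set with the highest mean. Of these, 20 did not pass, 7 were higher and 9 lower, against 16.4% and 13.2% of the 18193 genes. The median difference was -0.21, against 0.01 over all genes. The number of higher genes was 3, 2, 2 and 3 without N1, N3, P1 and P3, and that of lower genes was 6, 3, 3 and 2 in the same order. Without both arrays numbered 3 the counts were 0 higher and 1 lower.

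Among the higher genes, the adaptor Grb7, which docks on RET, rose by 2.02 (SE 0.25, adjusted p = 0.0104), from 5.90, 6.68 and 5.84 to 8.11, 8.18 and 8.19. Dok2, a docking protein also expressed in blood cells, rose by 1.04 (SE 0.11, adjusted p = 0.00769). The kinase genes Mapk7 and Map2k1 rose by 1.17 and 0.71 (adjusted p = 0.0227 and 0.0204), and the transcription factor Stat3 by 0.97 (adjusted p = 0.0230). Dok2 kept its call without any 1 array, Grb7 lost it without P3 (2.00, adjusted p = 0.0558), Map2k1 kept it only without N2 or P2, and Mapk7 and Stat3 kept it only without N2. On these arrays the macrophage markers rose too, with a median difference of 6.95, and their part in the result was not tested.

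Among the lower genes, the Ras exchange factors Sos2 and Sos1 fell by 1.73 (SE 0.25, adjusted p = 0.0132) and fell by 1.38 (SE 0.20, adjusted p = 0.0133). Sos2 measured 10.52, 9.77 and 10.52 in the Thy1-negative and 8.42, 8.69 and 8.49 in the Thy1-positive arrays. The docking protein gene Gab2 fell by 1.29 (SE 0.19, adjusted p = 0.0141), the scaffold gene Cd2ap by 1.04 (SE 0.11, adjusted p = 0.00735) and Rap1gap, an inhibitor of the GTPase RAP1, by 0.95 (SE 0.20, adjusted p = 0.0338). Of these, Cd2ap passed in all 6 fits that left out 1 array. Sos2 and Gab2 failed without N3, P1 or P3, Sos1 without those and N1, and Rap1gap passed only without N3. On these arrays the Sertoli markers fell too, with a median difference of -3.97, and their part in the result was not tested.

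**Figure D4:**
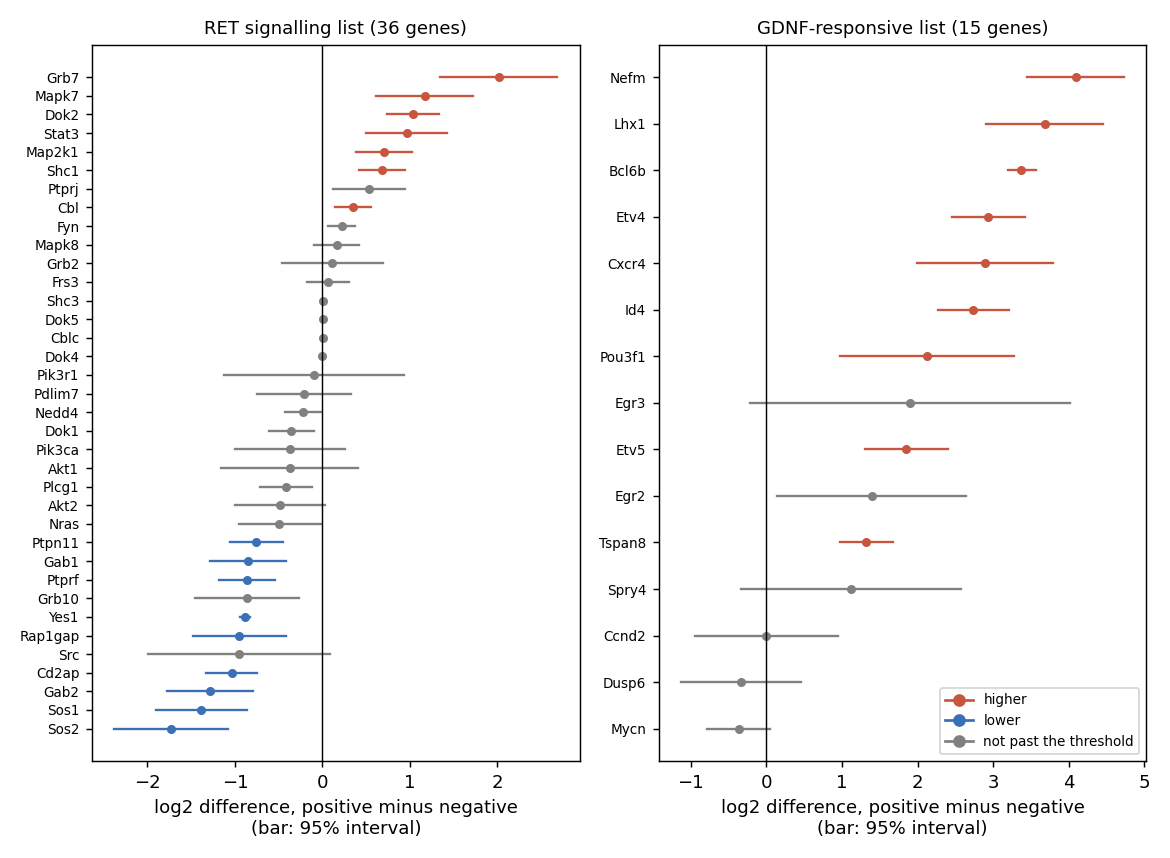
Difference of the mean log2(intensity + 1), Thy1-positive minus Thy1-negative, with its 95% interval, for the 36 measured genes of the RET signalling list (left) and the 15 of the GDNF-responsive list (right). The left list holds 7 higher and 9 lower genes around a median of -0.21, and the right list holds 9 higher and 0 lower genes.

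Genes known to respond to GDNF in cultured spermatogonia were mostly higher. Of 16 listed, 15 were measured, and 9 were higher and 0 lower by limma, against 16.4% and 13.2% of genes, with a median difference of 1.90 against 0.01; without N2, 1 was lower. At an unadjusted p below 0.05, 0 of them were lower. The list was chosen with earlier results of these data known, so its counts are not an independent comparison. The largest increases were those of Nefm, a neurofilament subunit (4.09, SE 0.24, adjusted p = 0.00221), and the transcription factor genes Lhx1 (3.68, SE 0.29, adjusted p = 0.00416), Bcl6b (3.37, SE 0.07, adjusted p = 0.000170) and Etv4 (2.93, SE 0.19, adjusted p = 0.00256). They were followed by the chemokine receptor gene Cxcr4 (2.89, SE 0.34, adjusted p = 0.00915), which measured 4.28, 4.31 and 4.17 against 7.40, 6.42 and 7.60. Lhx1 was dim in Thy1-negative cells, so its fold is at least 9.06 with values raised to the floor of 4.21. The 9 include Bcl6b, Id4 and Etv5, which are also markers of undifferentiated spermatogonia, so this count and that of the marker list are not separate results.

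Of 10 measured genes that act on Gdnf expression in the testis, 1 was higher and 3 were lower, against 16.4% and 13.2% of all genes. Fshr, the FSH receptor of Sertoli cells, fell by 5.14 (SE 0.51, adjusted p = 0.00650), from 8.15, 6.91 and 7.84 to 2.10, 3.29 and 2.10. Creb1, a transcription factor of the cyclic AMP response, fell by 1.15 (adjusted p = 0.0144), and Rbpj, the DNA-binding partner of NOTCH, by 1.06 (adjusted p = 0.0213); Creb1 failed without N1, P1 or P3, and Rbpj failed without those or N3. The cytokine gene Il1b rose by 3.10 (SE 0.32, adjusted p = 0.00707). Fshr was dim in Thy1-positive and Il1b in Thy1-negative cells, and with values raised to the floor of 4.21 their folds are at least 10.8 and at least 3.74.

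The genes whose pattern over the 6 arrays lay nearest to that of a member were found by the root mean square difference of centred log2 values among 19931 single-gene probe sets of above-median level. For Gfra1 these were Gpr34 (0.097), Tlr2 (0.108), Klrc1 (0.121), Bcl6b (0.122) and St8sia4 (0.151). For Ret they were AI662270 (0.165), Pmaip1 (0.171), Ovol2 (0.172), Lhx1 (0.180) and Gfra1 (0.183). Gfra1 was thus the fifth nearest gene to Ret, whereas Ret was not among the 5 nearest to Gfra1. For Gdnf they were Gja1 (0.176), Socs2 (0.187), Alas2 (0.196), Hsd17b1 (0.210) and Spata21 (0.225). The measure is set mostly by the size of the difference between the fractions, and it rests on 6 arrays. Gpr34, Tlr2, Klrc1, St8sia4, Ovol2 and Lhx1 were dim in Thy1-negative cells, and Socs2, Alas2 and Spata21 in Thy1-positive cells. These genes reached an above-median level through the other fraction, and the size of their differences depends on background values. With values raised to the floor of 4.21, the folds of Gpr34, Tlr2, Klrc1 and St8sia4 are at least 4.52, 10.2, 3.80 and 3.78.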

How the data were processed

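RNA of 6 testis cell samples was measured on 1 Affymetrix array each, 3 per fraction. The deposited table gives a linear intensity for each probe set on each array. Per the submitters' processing notes the authors used GCRMA, with no version given, whereas per the labels Affymetrix's own suite scaled the signals to a common target, so the procedure behind the values is unsettled. Present and absent calls were left aside, and the number of arrays limits the precision.

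Of 45101 probe sets, 64 controls were left out. Symbols came from the platform table, in which 34945 probe sets had 1 gene, 932 several and 9160 none. Values were taken as log2(intensity + 1) with a pseudocount of 1 and no further normalization or filter. The test was the moderated linear model of limma 3.58.1 in R 4.3.3, 2-sided, with fraction as its single term and no replicate block. An exact permutation test of 3 against 3 cannot go below 0.10 and was not used. The fit was tested on simulated data. For pathway and marker lists a gene was taken by its probe set with the highest mean, and its adjusted p is over all probe sets. Listed genes that no single-gene probe set names were not analysed here.

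Named genes were every member probe set, Thy1, all measured RET partners, up to 5 called genes per direction with the largest differences in the other pathway lists, and the 5 genes most like Gfra1, Ret and Gdnf. Marker genes beyond these were counted, and Sertoli genes were also named by their order in the Thy1-negative arrays. Values of Amh, Cldn11, Tubb3, Sox10, Th, Dbh, Stmn2, S100b and Ngfr are given as well, and these genes were named after their values had been seen. The members, lists and rules were chosen with earlier results of these data known. Alternatives were 17 settings, of which 6 leave out an array each; a pair of further fits, without the arrays of replicate 2 and without those of replicate 3, was chosen after seeing the data. The fractions are from independent donor preparations, and the labels do not state whether equal numbers share one.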

Additional observations from a re-analysis of the deposited data

How the results depend on the processing

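Gfra1 kept its direction and call on every probe set under each of the 17 alternatives that gave a value, with differences of 3.28 to 3.59, 4.26 to 4.91 and 4.31 to 5.64, as did Ret 1421359_at (3.48 to 4.01). With the replicate block, Gdnf (-4.63, adjusted p = 0.0782), Ret 1436359_at (3.62, 0.0629) and Gfra4 (1.95, 0.0992) did not pass: the family counts were 4 higher and 0 lower, the RET signalling counts 0 and 1 and the higher GDNF-responsive genes 1. With that block, calls over all probe sets fell from 5332 and 5201 to 746 and 485. Deviations of same-numbered arrays correlated at -0.22, -0.19 and -0.02. With 3 arrays per fraction these correlations cannot decide whether equal numbers share a preparation.

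Median centring shifts the median of all probe sets by 0.13, and 12 family probe sets and 14 RET signalling genes were then higher, as were 25863 of all 45037 probe sets (5912 lower); it also calls Artn and Pspn at 0.12, which relative to that shift did not move. Housekeeping centring (median -0.09; 5033 higher and 6907 lower over all probe sets) gave 15 lower RET signalling genes. Array weights, which called 13345 of all probe sets higher and 10596 lower, gave 9 higher and 2 lower family probe sets, 10 and 17 RET signalling genes, and 10 and 2 GDNF-responsive genes; Nrtn then passed (0.65, adjusted p = 0.0198). Sorl1 passed with median centring (adjusted p = 0.0411), above-median probe sets only (0.0365), values raised to the median (0.0434) and array weights (0.00228), and Ncam1 with housekeeping centring (0.0330) and the last 3 of these (0.0379, 0.0406 and 0.00313). With 1 probe set per gene, 3 family genes were higher, since fewer probe sets were tested.

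Without 1 array, the family counts were 5 to 7 higher and 1 lower, the RET signalling counts 2 to 8 and 2 to 9, and the GDNF-responsive counts 8 to 9 and 0 to 1. In the settings added later, leaving out both arrays numbered 2 gave 1 lower GDNF-responsive gene. Without both numbered 3, the family counts were 0 and 0, the RET signalling counts 0 and 1 and the higher GDNF-responsive genes 1, in a fit that called 219 and 144 of all probe sets.

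Signs turned only where a value had not passed. Housekeeping centring gave -0.09 for Artn and Pspn, -0.05 for Gfra2 1459847_x_at and -0.08 for Gfra2 1425578_a_at and 1425579_at. Artn was -0.0006 after quantile normalization, and -0.00003 (without P3) to 0.005 without 1 array. Pspn was -0.0007 (without N2) to 0.004 without 1 array, with -0.0002 and -0.0006 without P1 and P3. Gfra2 1459847_x_at was -0.009 with array weights, and -0.06 without N2 and without both arrays numbered 2; 1425578_a_at was -0.0004 (without N2) to 0.008 without 1 array. Gfra3 was -0.02 with values raised to the array medians. Sdc3 was 0.02 with median centring and -0.32 to 0.11 (without N1) without 1 array. Gas1 was 0.03 with median centring, -0.37 to 0.23 (without N3) without 1 array, 0.13 without P1 and 0.19 without both arrays numbered 3. The cause of these changes was not tested. Of 858 alternative values for 52 named probe sets, 746 stayed on their side of the threshold with the same sign. Signal over background limits Artn, Pspn, Gfra3 and 4 of the Gfra2 probe sets.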

Other observations

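Cell types outside the seminiferous tubule that could also carry GDNF family receptors were measured by 7 Schwann cell and neuronal markers. Of these, 0 were higher and 1 was lower, where 16.4% of all genes were higher and 13.2% lower. The lower gene was the tubulin gene Tubb3, which fell by 3.42 (SE 0.42, adjusted p = 0.010). It measured 8.51, 8.79 and 8.75 in N1, N2 and N3 and 4.81, 6.15 and 4.82 in P1, P2 and P3. P2 was thus its highest Thy1-positive array, as for the Sertoli list mean, and the cell type behind the Tubb3 signal was not tested. Sox10, a transcription factor of Schwann cells, measured 4.96, 5.90 and 5.26 in the Thy1-negative and 4.87, 5.82 and 4.96 in the Thy1-positive arrays, a difference of -0.15 (SE 0.38, adjusted p = 0.861). Th and Dbh, enzymes of catecholamine synthesis in sympathetic neurons, were dim in both fractions, at 2.54 and 3.58 in each, as was Stmn2 at 2.52. S100b and Ngfr were not dim in either fraction and did not pass. S100b measured 6.68, 6.22 and 7.21 in N1, N2 and N3 and 5.75, 7.61 and 6.39 in P1, P2 and P3. Ngfr measured 5.80, 4.97 and 4.97 against 4.97, 5.13 and 4.99. All 7 are thus named, and their values had been seen before they were named. The list means were 4.93 to 4.98 in the Thy1-negative and 4.15 to 4.76 in the Thy1-positive arrays.

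Interstitial mesenchyme markers passed for 0 of 7 genes by limma, of which 2 had an unadjusted p below 0.05, with a list mean of 9.71 in P1, 11.19 in P2 and 10.38 in P3, so P2 was the Thy1-positive array with the highest mesenchyme and Sertoli means. Of 6 T lymphocyte markers 3 were higher, of 7 endothelial markers 1 was higher, and of 4 Leydig cell markers 1 was lower, where 16.4% of all genes were higher and 13.2% lower.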
